A study of Mus musculus with 12 samples.

Results

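Collagens and the enzymes that build, cross-link and degrade them were examined across the whole family in isolated mouse epididymal white adipocytes (eWAs). Members were taken by symbol, as every collagen chain (Col), matrix metalloproteinase (Mmp), tissue inhibitor of metalloproteinases (Timp), Adamts proteinase and lysyl oxidase (Lox and Loxl) in the deposited table. This gave 96 of 20295 genes. Of these, 70 had enough counts to be tested, and the other 26 reached at most 23 counts in any library. One symbol, Col4a3bp, matched only by name, since it encodes a ceramide transfer protein and not a collagen. The other 95 were 44 collagen chains, 23 metalloproteinases, 19 Adamts proteinases, 5 lysyl oxidases and 4 TIMPs.

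The cells were floated mature adipocytes from lean male C57/BL6J mice, released from epididymal fat with collagenase and kept for 2 days in a hydrogel that contains thiol-modified gelatin, itself a collagen product. The 12 libraries fell into 4 groups of 3. DMSO cultures had vehicle alone. ISO cultures were stimulated for 3 h with isoproterenol, a pan β-adrenergic agonist. Lip cultures had both lipase inhibitors, named in the study's methods as Atglistatin (against ATGL) and CAY10499 (against HSL and MGL). Lip+ISO cultures had these inhibitors first and then 3 h of isoproterenol. Comparing ISO with DMSO asks what β-adrenergic stimulation does when fat can be broken down, and comparing Lip+ISO with Lip asks the same when lipolysis is blocked.

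Collagens are triple helices of 3 chains. Fibrillar collagens form the tensile fibers of connective tissue, collagen IV forms the sheet-like basement membrane that wraps every adipocyte, and collagen VI forms beaded filaments around fat cells. Lysyl oxidases cross-link collagen, metalloproteinases and Adamts proteinases cut collagens and proteoglycans, and TIMPs block these proteinases. In fat tissue this matrix is remodeled as adipocytes grow or shrink, and its excess is known as fibrosis.

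Library totals ran from 22632220 to 43707557 counts. Values are CPM, counts scaled to a common library size of 1e6 after normalization between libraries, where 3 counts correspond to 0.0686 to 0.133 CPM. Adipocyte markers were abundant, with Fabp4, an adipocyte fatty acid binding protein, between 11612 and 17499 CPM in every library and Adipoq, the adiponectin gene, averaging 2265 to 3129 CPM over the groups. Marker lists of other cell types were also detected in the floated cells and are given beside the collagens. In a bulk culture, fewer cells of a type and less RNA per cell cannot be told apart. A member is said to rise or fall where its adjusted p was at or under 0.05 in edgeR's quasi-likelihood F-test, adjusted over all 13543 tested genes. The labels do not say that replicates came from separate animals, so p-values measure the spread between these cultures.

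The members accounted for 0.969 to 1.21% of counts in DMSO, 1.27 to 1.54% in ISO, 1.05 to 1.16% in Lip and 1.02 to 1.23% in Lip+ISO. The ISO libraries thus lay above all 9 others. With ISO against DMSO, 20 of 70 tested members rose, where 12.3% of all tested genes did, and 5 fell, where 13.9% of all genes did. The median log2 fold change of the 70 members was 0.51, against 0.00 over all tested genes. With lipases inhibited, Lip+ISO against Lip, 9 members rose (11.5% of all genes did) and 6 fell (15.8% of all genes did), and the median was 0.08. Scaling by library totals alone gave 15 members higher and 5 lower with ISO (10.1% and 17.2% of all genes), and 8 higher and 7 lower under inhibition (7.89% and 21.9% of all genes), where it moved all log2 fold changes by -0.11. With a change of at least 2-fold in addition, 11 members rose and 2 fell with ISO alone (5.68% and 1.8% of all genes), and 5 rose and 3 fell under inhibition (4.19% and 3.16% of all genes).

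The 2 responses to ISO share no library. Of the 70 tested members, 8 (11.4%) rose in both, against 6.62% of all tested genes, namely Adamts1, Adamts4, Adamts9, Col4a1, Col4a2, Loxl2, Mmp12 and Mmp17. The 4 (5.71%) that fell in both were Adamts5, Adamts6, Mmp11 and Col4a3bp, against 9.62% of all tested genes. A further 12 (17.1%) rose with ISO and did not pass with the inhibitors, against 5.59% of all tested genes, and these included the main interstitial collagens Col1a1, Col1a2, Col3a1, Col6a2 and Col6a3. Col4a3bp fell by 0.51 on the log2 scale with ISO (SE 0.09, adjusted p = 0.00183) and by 0.38 under inhibition (SE 0.09, adjusted p = 0.0085). Col10a1 passed as higher, and Adamts10 and Mmp15 as lower, in Lip+ISO against Lip and not in ISO against DMSO, and Loxl1 fell in ISO against DMSO and did not pass under inhibition. A pass in 1 comparison and not in the other does not show a difference, which is tested below as the interaction.

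**Figure D1:**
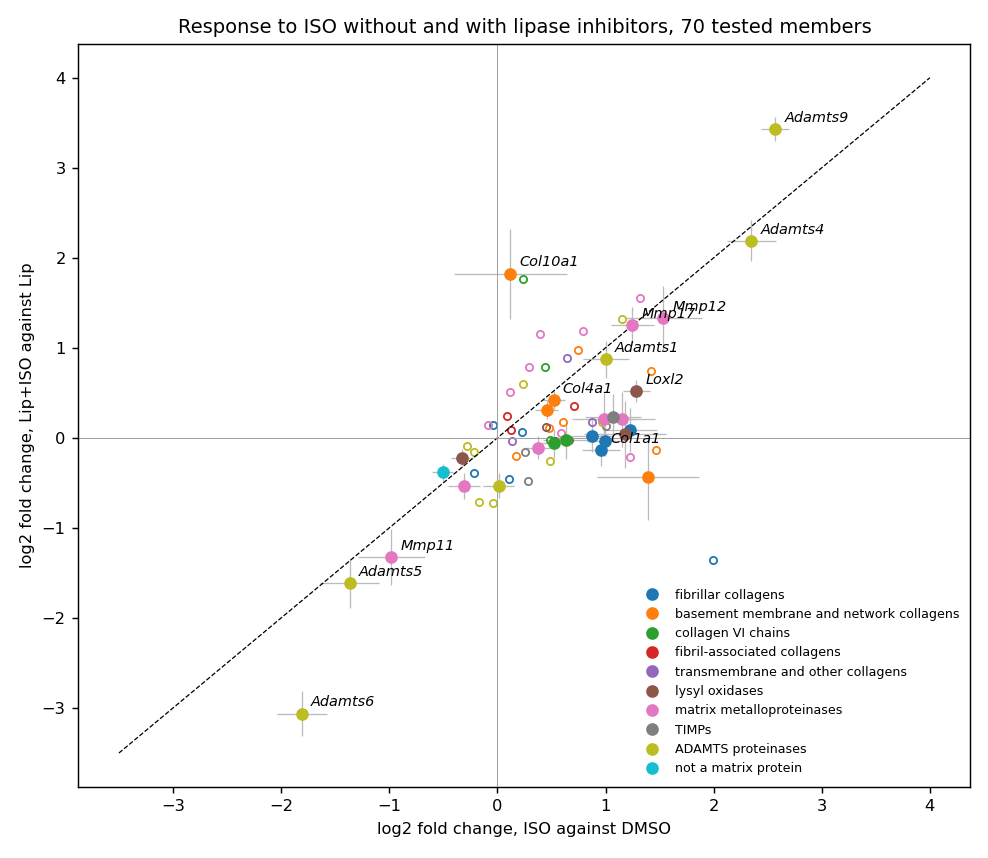
Log2 fold change of the 70 tested members in ISO against DMSO (horizontal) and in Lip+ISO against Lip (vertical), colored by role, with the SE of members that passed in either. Filled points passed in at least 1 of the 2 tests, and the dashed line marks equal responses. Adamts9, Adamts4, Adamts5 and Adamts6 lie far from 0 on both axes, whereas Col1a1 lies near 1 on the horizontal and near 0 on the vertical axis.

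The promoters of 4 members are shown as examples only. Of the members that rose with ISO in both settings, Adamts9 and Adamts1 are shown. They were the only ones of that set found to hold the letters TGACG, explained below, and so are not typical of it. Timp1 and Col1a2 rose with lipolysis intact and did not pass under inhibition. The interaction described below passed for Col1a2 and not for Timp1 (adjusted p = 0.323). Each line holds the 250 bases before the RefSeq transcription start (GRCm38.p6), written 5′ to 3′ on the gene's strand, with TGACG (part of the site of CREB, a factor that cAMP signaling activates) and TATAAA (the TATA box) in capitals.

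Adamts9, chr6:92943535-92943784, minus strand: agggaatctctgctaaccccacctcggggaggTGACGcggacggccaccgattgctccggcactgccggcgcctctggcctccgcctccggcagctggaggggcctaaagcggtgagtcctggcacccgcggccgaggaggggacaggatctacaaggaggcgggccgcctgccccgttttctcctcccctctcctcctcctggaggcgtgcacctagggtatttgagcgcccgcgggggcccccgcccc
Adamts1, chr16:85803114-85803363, minus strand: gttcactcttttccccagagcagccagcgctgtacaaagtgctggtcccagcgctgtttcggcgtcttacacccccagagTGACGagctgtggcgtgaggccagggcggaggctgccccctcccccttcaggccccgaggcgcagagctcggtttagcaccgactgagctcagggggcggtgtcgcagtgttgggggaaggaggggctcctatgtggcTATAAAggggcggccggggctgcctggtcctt
Timp1, chrX:20869916-20870165, plus strand: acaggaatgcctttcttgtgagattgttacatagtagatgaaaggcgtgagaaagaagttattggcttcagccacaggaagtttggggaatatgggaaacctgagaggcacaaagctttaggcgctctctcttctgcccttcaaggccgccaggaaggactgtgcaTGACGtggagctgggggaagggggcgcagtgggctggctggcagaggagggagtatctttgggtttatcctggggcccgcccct
Col1a2, chr6:4505368-4505617, plus strand: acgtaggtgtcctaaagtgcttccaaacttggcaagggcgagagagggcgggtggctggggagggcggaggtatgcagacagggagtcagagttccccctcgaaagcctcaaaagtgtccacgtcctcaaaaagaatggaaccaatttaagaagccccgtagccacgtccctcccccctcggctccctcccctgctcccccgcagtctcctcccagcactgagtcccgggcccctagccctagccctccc

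TGACG lay 218 bases before the start in Adamts9, 170 bases before it in Adamts1 and 84 bases before it in Timp1, and the Col1a2 window held none of the searched letters. Promoters were found for 68 of the 96 members, 74 promoters in all. On either strand, TGACG occurred in 10 of these 74 (13.5%), against 17.8% of all 32851 promoters in the table. Its holders were Adamts1, Adamts3, Adamts9, Adamts12, Col4a5, Col7a1, Col11a2, Col24a1, Loxl4 and Timp1. Of the members that rose with ISO, only the printed Adamts9, Adamts1 and Timp1 were among these holders. Members without a promoter entry could not be searched. The full palindrome TGACGTCA, which contains TGACG, occurred in 0 of 74, against 1.55% of all. TGANTCA, the AP-1 site, occurred in 9 of 74 (12.2%), against 6.75% of all, and its holders were Col6a1 and 8 metalloproteinases, among them Mmp3 and Mmp12. TATAAA on the gene's strand occurred in 14 of 74 (18.9%), against 7.59% of all. These are matches of letters in a short window and say nothing of binding.

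Levels between genes are compared per length, as RPKM, the CPM divided by the deposited counted length in kilobases. The most abundant member was Col4a1 (chr8:11198423-11312826 in mm9, minus strand), with 438 RPKM averaged over the 12 libraries, higher than 99.1% of tested genes. Col4a2 followed with 271 RPKM, Loxl1 with 178, Timp1 with 133, Col15a1 with 128, Col6a1 with 122, Col6a2 with 120, Col5a3 with 102, Mmp19 with 97.8 and Mmp2 with 72.6 RPKM. The leading collagens in these libraries were thus those of the basement membrane and of collagen VI filaments, followed by the fibrillar chain Col5a3. Col1a1, Col3a1 and Col1a2, the chains of the bulk collagens of connective tissue, averaged 37.6, 31.9 and 26.5 RPKM. This order is that of the mean over all libraries and changed between groups. In DMSO, Loxl1 had 189 ± 5.5 RPKM, Col15a1 137 ± 8.6 and Timp1 94.5 ± 26.7 (SD, n = 3). In ISO, Timp1 had 198 ± 27.6 RPKM, Col6a2 172 ± 24.8, Col6a1 161 ± 19.5, Col15a1 154 ± 7.85 and Loxl1 151 ± 14.6 (SD, n = 3). Neighbors lay close: in DMSO, Col6a1 had 115 ± 18.1 RPKM, Col6a2 111 ± 16.5 RPKM and Col5a3 106 ± 32.7 RPKM (SD, n = 3).

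**Figure D2:**
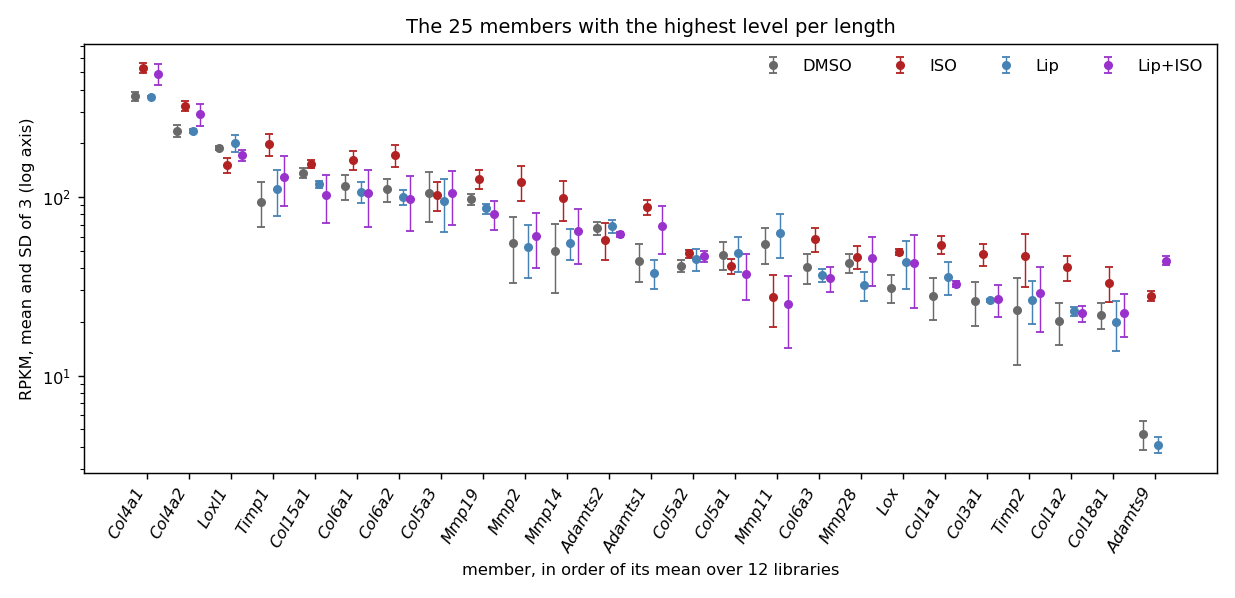
Level per length (RPKM, log axis) of the 25 most abundant members, as mean and SD of the 3 libraries of each group. Col4a1 and Col4a2 stand highest in every group, and Adamts9 moves from under 5 RPKM in DMSO and Lip to 28 RPKM in ISO and 44.1 RPKM in Lip+ISO.

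Counts by role here and below are to be read beside the shares of all tested genes. These were 12.3% higher and 13.9% lower with ISO, and 11.5% higher and 15.8% lower under inhibition. Among fibrillar collagens, 4 of 9 tested chains rose with ISO and 0 fell, with a median log2 fold change of 0.87. With lipases inhibited, 0 of 9 rose and 0 fell, and the median was -0.04. Col1a1, the α1 chain of collagen I, had 115, 171 and 107 CPM in DMSO, 221, 275 and 266 CPM in ISO, 181, 129 and 196 CPM in Lip, and 156, 146 and 159 CPM in Lip+ISO. The ISO libraries lay above those of every other group, and the Lip and Lip+ISO libraries overlapped. Col1a1 rose with ISO by a log2 fold change of 0.96 (SE 0.18, adjusted p = 0.00185 in edgeR).

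Col1a2, the α2 chain of collagen I (chr6:4455697-4491543 in mm9, plus strand), had 98.4, 134 and 80.2 CPM in DMSO, 172, 237 and 214 CPM in ISO, 123, 120 and 111 CPM in Lip, and 105, 127 and 112 CPM in Lip+ISO. Again only the ISO libraries stood apart. Its log2 fold change was 1.00 with ISO (SE 0.17, adjusted p = 0.000833 in edgeR). Col3a1, the chain of collagen III, had 130, 192 and 116 CPM in DMSO, 226, 273 and 301 CPM in ISO, 149, 143 and 149 CPM in Lip, and 117, 178 and 153 CPM in Lip+ISO. Col3a1 rose with ISO by 0.87 on the log2 scale (SE 0.18, adjusted p = 0.00417), and the ISO libraries did not overlap the other 9.

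With lipases inhibited, the log2 fold change with ISO was -0.13 for Col1a1 (95% interval -0.52 to 0.25), -0.04 for Col1a2 (-0.39 to 0.32) and 0.02 for Col3a1 (-0.38 to 0.42). These intervals exclude a doubling of any of the 3 chains, and none of the 3 passed the test. The Col1a1 to Col1a2 ratio per length was 1.38 ± 0.0864 in DMSO, 1.34 ± 0.0671 in ISO, 1.57 ± 0.379 in Lip and 1.48 ± 0.194 in Lip+ISO (SD, n = 3).

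Col27a1, a fibrillar collagen of cartilage, was scarce and rose with ISO from 4.64, 4.28 and 3.25 CPM to 5.77, 10.1 and 12.6 CPM (log2 fold change 1.23, SE 0.25, adjusted p = 0.00313). Without replicate 2 or replicate 3 of every group it no longer passed. Col5a3, a minor fibrillar chain that adipose tissue expresses, showed a different pattern, with the highest value of its group in replicate 3 of all 4 groups (751 to 886 CPM) and the lowest in replicate 1 (425 to 519 CPM). Its log2 fold change with ISO was -0.04 (SE 0.28, adjusted p = 0.925).

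**Figure D3:**
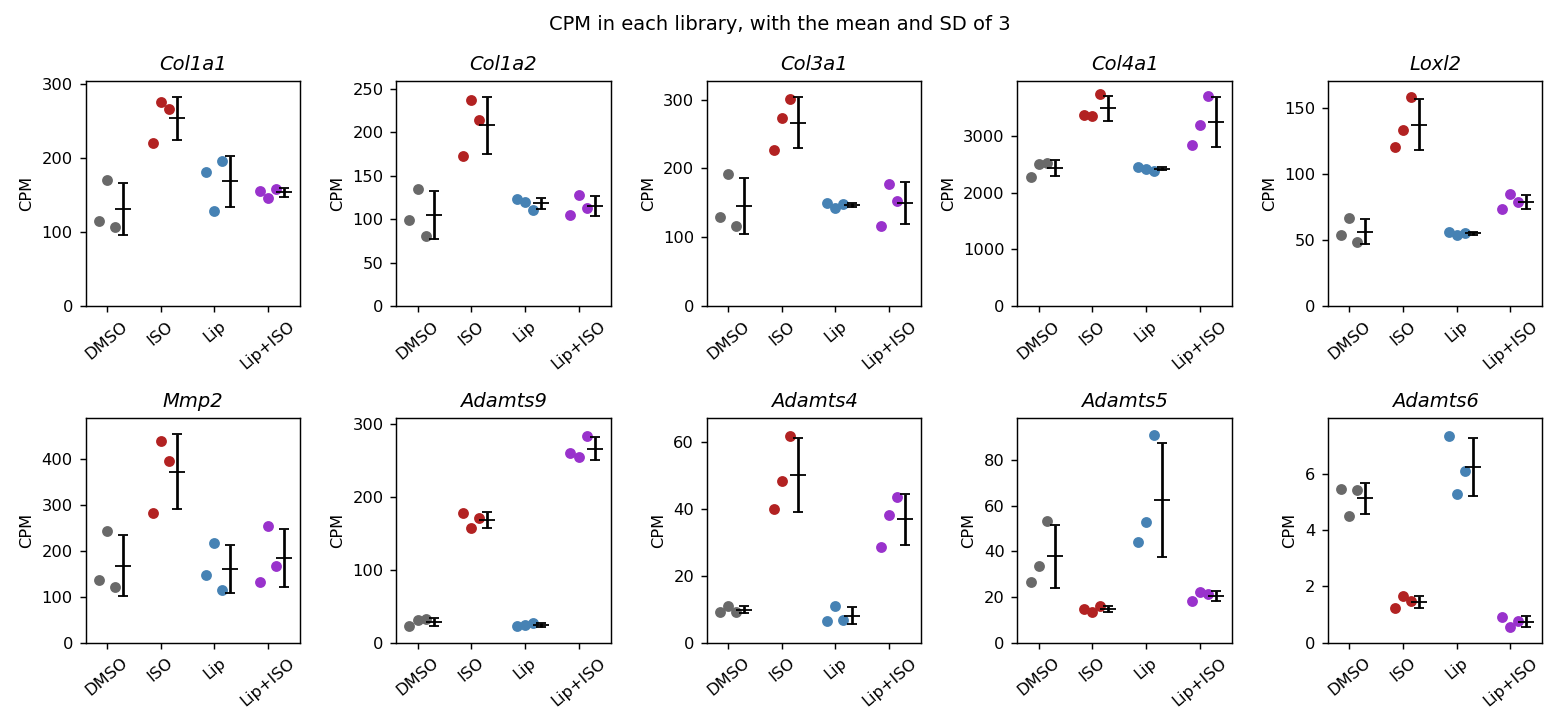
CPM of 10 members in each library (points), with the mean and SD of each group of 3 to the right. In the collagen I and III panels only ISO stands apart, in the Col4a1 and Adamts panels ISO and Lip+ISO move together, and Loxl2 is highest in ISO and intermediate in Lip+ISO.

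Basement membrane and network collagens had 3 of 10 tested chains higher with ISO and 3 of 10 higher with ISO under inhibition, with none lower in either. Col4a1 had 2273, 2500 and 2528 CPM in DMSO, 3373, 3354 and 3746 CPM in ISO, 2449, 2426 and 2392 CPM in Lip, and 2840, 3190 and 3709 CPM in Lip+ISO. Every library with ISO lay above every library without it. The log2 fold change was 0.52 (SE 0.10, adjusted p = 0.00262) with ISO and 0.42 (SE 0.10, adjusted p = 0.00778) with ISO under inhibition.

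Col4a2 lies head to head with Col4a1, with 2 base pairs between the first bases of their spans in the table. It rose by 0.46 on the log2 scale with ISO (SE 0.11, adjusted p = 0.00725) and by 0.31 under inhibition (SE 0.11, adjusted p = 0.0438). The second of these calls was lost under 14 alternatives, among them library totals alone and leaving out Lip+ISO 3. The Col4a1 to Col4a2 ratio per length averaged 1.56 in DMSO, 1.63 in ISO, 1.56 in Lip and 1.69 in Lip+ISO.

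Col15a1 and Col18a1, collagens of the basement membrane zone, did not pass with ISO, with log2 fold changes of 0.18 (SE 0.17) and 0.60 (SE 0.25, adjusted p = 0.0891). Col8a2, a short-chain network collagen, rose from 1.8, 1.3 and 0.431 CPM in DMSO to 3.21, 3.87 and 2.25 CPM in ISO, a log2 fold change of 1.39 (SE 0.48, adjusted p = 0.0469), and this call held in only some of the alternatives. Col10a1, the collagen of hypertrophic cartilage, was scarce, at 0.235 to 0.587 CPM in DMSO and 0.138 to 0.481 CPM in Lip, and 1.41, 1.56 and 0.794 CPM in Lip+ISO. It rose under inhibition by 1.82 on the log2 scale (SE 0.50, adjusted p = 0.0156). Its span overlaps Nt5dc1, and without strand information its reads are uncertain.

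Of the collagen VI chains, 2 of 5 tested rose with ISO and 0 of 5 changed under inhibition. Col6a3, the long chain from which endotrophin is released, had 287, 418 and 390 CPM in DMSO, 448, 515 and 613 CPM in ISO, 300, 331 and 359 CPM in Lip, and 259, 339 and 352 CPM in Lip+ISO. The ISO libraries were the highest and the other 3 groups overlapped. Its log2 fold change with ISO was 0.53 (SE 0.16, adjusted p = 0.028), and -0.06 under inhibition (SE 0.16, adjusted p = 0.835).

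Col6a2 rose with ISO by 0.63 on the log2 scale (SE 0.22, adjusted p = 0.0462). Its partner Col6a1 had 375, 511 and 483 CPM in DMSO and 553, 671 and 698 CPM in ISO, which did not overlap, and a log2 fold change of 0.49 that did not pass (SE 0.23, adjusted p = 0.128). With library totals alone the calls of Col6a2 and Col6a3 were also lost. The remaining fibril-associated, transmembrane and other collagens had 7 tested chains, and 0 of them passed in either direction in any comparison.

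Among the 5 lysyl oxidases, 2 rose and 1 fell with ISO. Loxl2, a cross-linking enzyme that acts on collagen IV (chr14:70009283-70095641 in mm9, plus strand), had 53.9, 66.9 and 48.2 CPM in DMSO, 120, 134 and 158 CPM in ISO, 56.3, 53.7 and 55.3 CPM in Lip, and 73.5, 84.5 and 78.4 CPM in Lip+ISO. The 3 levels of baseline, Lip+ISO and ISO did not overlap. Loxl2 rose by 1.29 on the log2 scale with ISO (SE 0.12, adjusted p = 1.06e-05) and by 0.52 under inhibition (SE 0.12, adjusted p = 0.00675).

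Loxl3 rose with ISO by 1.18 (SE 0.38, adjusted p = 0.0373), and its span overlaps Htra2. Loxl1, the oxidase of elastic fibers and the most abundant enzyme of the set, moved the other way, from 639, 609 and 643 CPM in DMSO to 516, 543 and 448 CPM in ISO (log2 fold change -0.33, SE 0.10, adjusted p = 0.029). The DMSO and ISO libraries did not overlap. Lox, the founding member, had 145, 160 and 113 CPM in DMSO and 230, 213 and 217 CPM in ISO, and its log2 fold change of 0.66 did not pass (SE 0.27, adjusted p = 0.0957). Lox varied widely in Lip and Lip+ISO, from 114 to 279 CPM.

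Matrix metalloproteinases had 5 of 15 tested members higher and 1 lower with ISO, and 2 higher and 2 lower under inhibition. Mmp2, a gelatinase that cleaves collagen IV and denatured collagen, had 137, 244 and 122 CPM in DMSO, 282, 438 and 395 CPM in ISO, 148, 217 and 115 CPM in Lip, and 133, 254 and 166 CPM in Lip+ISO. In every group replicate 2 was the highest, and the ISO libraries still lay above all others. Mmp2 rose with ISO by 1.15 on the log2 scale (SE 0.31, adjusted p = 0.0162), and the call was lost without DMSO 1, DMSO 3 or ISO 2.

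Mmp14, the membrane proteinase that activates pro-Mmp2, rose with ISO by 0.98 (SE 0.29, adjusted p = 0.0258), from 112, 189 and 86 CPM to 213, 330 and 223 CPM, and was likewise lost without those libraries. Under inhibition the log2 fold changes were 0.21 for Mmp2 (95% interval -0.46 to 0.87) and 0.21 for Mmp14 (-0.42 to 0.84), and neither passed. Mmp19 rose by 0.38 with ISO (SE 0.13, adjusted p = 0.0451), its call was lost in most alternatives, and its span overlaps Tmem198b.

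Mmp12, the elastase of macrophages, had 31.5, 26.4 and 15.9 CPM in DMSO, 86.1, 63 and 64.8 CPM in ISO, 16.5, 12.6 and 15.9 CPM in Lip, and 62, 33.5 and 18 CPM in Lip+ISO. The ISO libraries were the highest, and the Lip+ISO values were spread from 18 to 62 CPM. Mmp12 rose with ISO by 1.53 (SE 0.35, adjusted p = 0.00722) and under inhibition by 1.33 (SE 0.36, adjusted p = 0.0142), the latter lost without Lip 2 or Lip+ISO 1.

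Mmp17, a membrane-anchored proteinase, was low but steady, with 2.02, 2.85 and 2.31 CPM in DMSO, 5.06, 6.06 and 5.88 CPM in ISO, 1.68, 1.9 and 2.21 CPM in Lip, and 4.2, 4.89 and 4.77 CPM in Lip+ISO. Its log2 fold change was 1.25 with ISO (SE 0.20, adjusted p = 0.000649) and 1.25 under inhibition (SE 0.20, adjusted p = 0.000439). Mmp11, also called stromelysin 3, fell in both settings, from 134, 143 and 90.4 CPM in DMSO to 51.2, 85 and 49.8 CPM in ISO (log2 fold change -0.98, SE 0.31, adjusted p = 0.0342), and from 160, 169 and 97 CPM in Lip to 42.9, 85.5 and 42 CPM in Lip+ISO (-1.32, SE 0.31, adjusted p = 0.00674).

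Mmp3, or stromelysin 1, followed the replicate number and not the treatment, with 12.9 to 28.9 CPM in replicate 2 of each group and 2.65 to 10.5 CPM in the other 8 libraries. Its log2 fold change with ISO was 0.29 (SE 0.95). Mmp9, the gelatinase of neutrophils and macrophages, had 0.117 to 0.605 CPM in DMSO, ISO and Lip and reached 1.55 CPM in Lip+ISO 3, and it passed in no comparison.

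Of the 4 TIMPs, only Timp1 passed with ISO. It had 78.9, 110 and 63 CPM in DMSO, 156, 203 and 168 CPM in ISO, 99.2, 126 and 68.7 CPM in Lip, and 107, 154 and 84.1 CPM in Lip+ISO, so that ISO stood above the other 9 libraries. The log2 fold change was 1.07 with ISO (SE 0.26, adjusted p = 0.00907) and 0.23 under inhibition (SE 0.26, adjusted p = 0.565). Timp2, the inhibitor that also helps Mmp14 activate Mmp2, had a log2 fold change of 1.01 that did not pass (SE 0.36, adjusted p = 0.0548). Timp3 and Timp4 had 0.26 and 0.28. All 4 overlap another gene in the table (Syn1, BC100451, Syn3 and Syn2), so their reads are uncertain. Per length, Mmp2 exceeded Timp2 by 2.45 ± 0.273 times in DMSO and 2.69 ± 0.428 times in ISO (SD, n = 3).

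The Adamts proteinases held the largest changes of the whole set, with 3 of 14 tested higher and 2 lower with ISO, and 3 higher and 3 lower under inhibition. Of all tested genes, 12.3% rose and 13.9% fell with ISO, and 11.5% rose and 15.8% fell under inhibition. Adamts9, a proteoglycan-cleaving enzyme (chr6:92722693-92851435 in mm9, minus strand), had 22.4, 30.8 and 32.2 CPM in DMSO, 179, 157 and 171 CPM in ISO, 22.4, 24.4 and 27.4 CPM in Lip, and 261, 255 and 284 CPM in Lip+ISO. The 6 libraries with ISO lay far above the 6 without, and Lip+ISO lay above ISO without overlap. Adamts9 rose 5.94-fold with ISO (log2 fold change 2.57, SE 0.13, adjusted p = 6.95e-08) and by 3.43 on the log2 scale under inhibition (SE 0.13, adjusted p = 3.02e-09).

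Adamts4, an aggrecanase that also cuts versican, had 9.19, 11 and 9.24 CPM in DMSO, 39.9, 48.4 and 61.8 CPM in ISO, 6.42, 11 and 6.81 CPM in Lip, and 28.7, 38.3 and 43.6 CPM in Lip+ISO. Libraries with and without ISO did not overlap. The log2 fold change was 2.35 with ISO (SE 0.23, adjusted p = 1.12e-05) and 2.19 under inhibition (SE 0.23, adjusted p = 1.24e-05). Adamts1, another versican-cleaving member, rose by 1.00 with ISO (SE 0.21, adjusted p = 0.00407) and by 0.87 under inhibition (SE 0.21, adjusted p = 0.0077).

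Adamts5, the second main aggrecanase, moved opposite to Adamts4. It had 26.7, 33.5 and 53.3 CPM in DMSO, 14.6, 13.4 and 16 CPM in ISO, 44.1, 52.8 and 90.9 CPM in Lip, and 18.1, 22.1 and 21.1 CPM in Lip+ISO. Every library with ISO was below every library without. The log2 fold change was -1.37 with ISO (SE 0.27, adjusted p = 0.00299) and -1.61 under inhibition (SE 0.27, adjusted p = 0.000634).

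Adamts6 was scarce and fell most, from 5.46, 4.49 and 5.44 CPM in DMSO to 1.23, 1.65 and 1.47 CPM in ISO, and from 7.35, 5.28 and 6.12 CPM in Lip to 0.93, 0.556 and 0.755 CPM in Lip+ISO. Its log2 fold change was -1.81 with ISO (SE 0.23, adjusted p = 0.00012) and -3.06 under inhibition (SE 0.25, adjusted p = 1.52e-06). Together these changes moved the Adamts9 to Adamts5 ratio per length from 1.06 ± 0.22 in DMSO to 15.5 ± 1.08 in ISO, and from 0.568 ± 0.145 in Lip to 17.6 ± 1.97 in Lip+ISO (SD, n = 3).

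**Figure D4:**
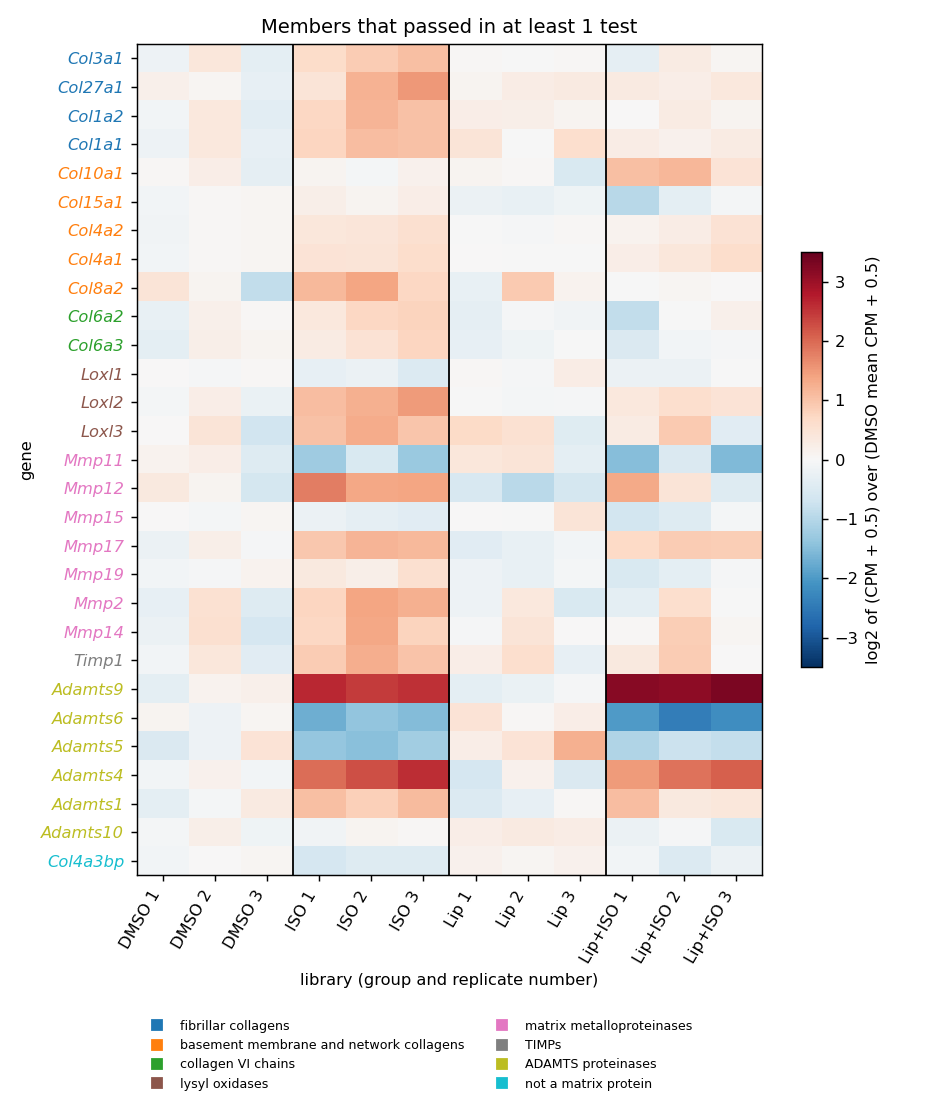
Log2 of each library's CPM over the DMSO mean (0.5 CPM added to both) for the 29 members that passed in at least 1 of 5 tests, grouped by role, with libraries in columns. Adamts9 and Adamts4 are red and Adamts5, Adamts6 and Mmp11 blue in the 6 libraries with ISO, whereas the fibrillar collagens, collagen VI chains and Loxl3 are reddest in the 3 ISO libraries.

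No member passed with the inhibitors alone. In Lip against DMSO, 0 members rose and 0 fell (0.00738% and 0.0443% of all genes). In edgeR, 1 member had an unadjusted p under 0.05, against 4.3% of all tested genes. With the 2-fold minimum, the share of all genes that fell was 0.0222%. The member with the unadjusted p under 0.05 was Adamts5, with a log2 fold change of 0.73 (SE 0.26, adjusted p = 0.861). DESeq2 also called 0 members in either direction.

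Under ISO, the inhibitors were accompanied by lower levels. In Lip+ISO against ISO, 10 members fell (4.59% of all genes did) and 1 rose (4.36% of all genes did), with a median log2 fold change of -0.34 against -0.01 over all genes. None of the 11 reached 2-fold, where 1.2% of all genes fell and 0.79% rose by that much. This comparison shares the ISO libraries with the first and the Lip+ISO libraries with the second, so its values are not independent of theirs. The fibrillar chains that fell were Col1a1 by 0.73 (SE 0.18, adjusted p = 0.0237), Col1a2 by 0.86 (SE 0.16, adjusted p = 0.00596), Col3a1 by 0.84 (SE 0.18, adjusted p = 0.0131) and Col27a1 by 0.89 on the log2 scale (SE 0.25, adjusted p = 0.0414). In collagen VI, Col6a2 fell by 0.81 (adjusted p = 0.0357) and Col6a3 by 0.73 (adjusted p = 0.0129).

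Col15a1 fell by 0.59 in this comparison (SE 0.17, adjusted p = 0.044), with 836, 774 and 853 CPM in ISO and 368, 575 and 689 CPM in Lip+ISO. This call was lost in 13 of 15 fits that each left out a library or a replicate number. The enzymes that fell were Loxl2 by 0.80 (SE 0.12, adjusted p = 0.00135), Mmp19 by 0.66 (SE 0.13, adjusted p = 0.00591) and Adamts6 by 0.97 (SE 0.26, adjusted p = 0.0333). Adamts9 alone rose, by 0.66 on the log2 scale (SE 0.12, adjusted p = 0.0045). Mmp2 had a log2 fold change of -1.01 that did not pass (SE 0.31, adjusted p = 0.0632), and Timp1 had -0.61 (SE 0.26, adjusted p = 0.166). The count of 10 depended on single libraries, since 5 members fell without ISO 2, 3 without ISO 3 and 6 without Lip+ISO 2.

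The interaction took Lip+ISO against Lip minus ISO against DMSO and so tested whether the 2 responses differed. It passed as positive for 1 member (0.901% of all genes) and as negative for 2 (0.724% of all genes), and the median over the members was -0.36. With a size of at least 1 on the log2 scale, 0 members were positive (0.406% of all genes) and 1, Col1a2, was negative (0.34% of all genes). Adamts9 responded more strongly with inhibitors, with an interaction of 0.86 on the log2 scale (SE 0.17, adjusted p = 0.0274). Col1a2 responded less, with -1.03 (SE 0.23, adjusted p = 0.0455), as did Loxl2, with -0.77 (SE 0.17, adjusted p = 0.0448). Col1a1 had an interaction of -1.09 that missed the threshold (SE 0.25, adjusted p = 0.0521). These calls were fragile, and in 15 fits that each left out a library or a replicate number, the adjusted p exceeded 0.05 in 9 for Adamts9, 13 for Col1a2 and 13 for Loxl2. In the main fit, which has no replicate block, the interaction of the other members that passed with ISO only missed the threshold. With a replicate block more members passed as negative, as given in the closing section, so the count of 2 depends on that choice.

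Single calls turned on single libraries as well. In ISO against DMSO, the calls of Adamts1, Adamts4, Adamts5, Adamts6, Adamts9, Col1a1, Col1a2, Col3a1, Col4a1, Col4a2, Col27a1, Loxl2, Mmp12, Mmp17 and Timp1 held when any 1 of the 12 libraries was left out. Leaving out DMSO 1 ended the calls of Col6a2, Col6a3, Loxl1, Loxl3, Mmp2, Mmp11, Mmp14 and Mmp19, and leaving out DMSO 3 ended the same calls except Mmp11 and also that of Col8a2. Without DMSO 2 or ISO 1 the calls of Col8a2, Mmp11 and Mmp19 were lost, with Col6a2 for DMSO 2 and Loxl3 for ISO 1. Without ISO 2 the calls of Col6a2, Col6a3, Col8a2, Loxl3, Mmp2 and Mmp14 were lost, and without ISO 3 those of Col6a2, Col6a3, Col8a2, Loxl1, Loxl3, Mmp11 and Mmp19. In Lip+ISO against ISO, leaving out ISO 2, ISO 3 or Lip+ISO 2 ended the calls of Col1a1, Col6a2, Col15a1, Col27a1 and Adamts6, and ISO 3 also those of Col3a1 and Col6a3. These calls were not equally stable. Over the 15 leave-out fits, Col15a1 was lost in 13 and Col27a1 in 12, against 6 for Col1a1, 6 for Col6a2 and 7 for Adamts6. Col10a1 in Lip+ISO against Lip was lost without Lip 3 or Lip+ISO 2.

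Single libraries also set how many members rose with ISO. Without DMSO 3, or without replicate 2 or replicate 3 of every group, 13 members rose, and without replicate 2 of every group 3 rose under inhibition. The count that fell with ISO was 3 without DMSO 1 or without ISO 3.

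Markers of other cell types were measured in the same libraries. Beside the marker counts given below, 12.3% of all tested genes rose and 13.9% fell with ISO, and 11.5% rose and 15.8% fell under inhibition. The summed level of Col1a1, Col1a2 and Col3a1 was 302 to 497 CPM in DMSO, 619 to 785 in ISO, 392 to 455 in Lip and 378 to 452 in Lip+ISO. The 10 fibroblast and preadipocyte markers had a median log2 fold change of 0.86 with ISO and -0.65 in Lip+ISO against ISO. Of these, 2 of 10 rose with ISO, the platelet-derived growth factor receptors Pdgfra by 0.93 (SE 0.23, adjusted p = 0.0109) and Pdgfrb by 0.88 (SE 0.22, adjusted p = 0.0103). Under inhibition 0 of 10 passed.

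The summed level of the fibroblast list was 3485 to 4307 CPM in DMSO, 2628 to 2846 in ISO, 3098 to 4447 in Lip and 2010 to 4496 in Lip+ISO, and was thus lower in every ISO library than in every DMSO library. Most of it was Gsn, which adipocytes also express, with a mean of 3466 CPM in DMSO, 2207 in ISO, 3260 in Lip and 2853 in Lip+ISO. Every other marker of this list had a higher mean in ISO than in DMSO. Dcn, for example, averaged 95.1 CPM in DMSO and 171 CPM in ISO, and Pdgfrb 73.8 and 136 CPM. The lower sum in ISO was thus that of Gsn. Endothelial markers summed to 133 to 252 CPM in DMSO, 302 to 545 in ISO, 67.4 to 218 in Lip and 102 to 299 in Lip+ISO, and 1 of 10, Cldn5, rose with ISO. The macrophage list summed to 51.1 to 65.9 CPM in DMSO, 109 to 162 in ISO, 54.8 to 60.7 in Lip and 70.1 to 120 in Lip+ISO. In that list 6 of 9 tested genes rose with ISO, and Cd163 was too low to test. Under inhibition 3 of 9 macrophage markers and 1 of 10 endothelial markers rose, and 0 fell in either list.

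Mesothelial markers had 1 of 9 higher (Wt1), pericyte and smooth muscle markers 2 of 10 higher (Kcnj8 and Abcc9) and neutrophil markers 1 of 3 tested higher (S100a8) with ISO, whereas adipocyte markers had 0 of 10 higher and 2 of 10 lower (Lep and Pparg). Under inhibition, mesothelial markers had 1 of 9 higher and 1 lower, and pericyte and smooth muscle markers 2 of 10 higher and 1 lower. Neutrophil markers had 1 of 3 higher and 0 lower, and adipocyte markers 0 of 10 higher and 2 lower. The pericyte and smooth muscle list summed to 245 to 382 CPM in DMSO and 265 to 401 in ISO, which overlapped. The part of other cell types in the collagen, Mmp and Timp values was not tested. Endothelial sums were highest in replicate 2 of every group, as was Mmp2.

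**Figure D5:**
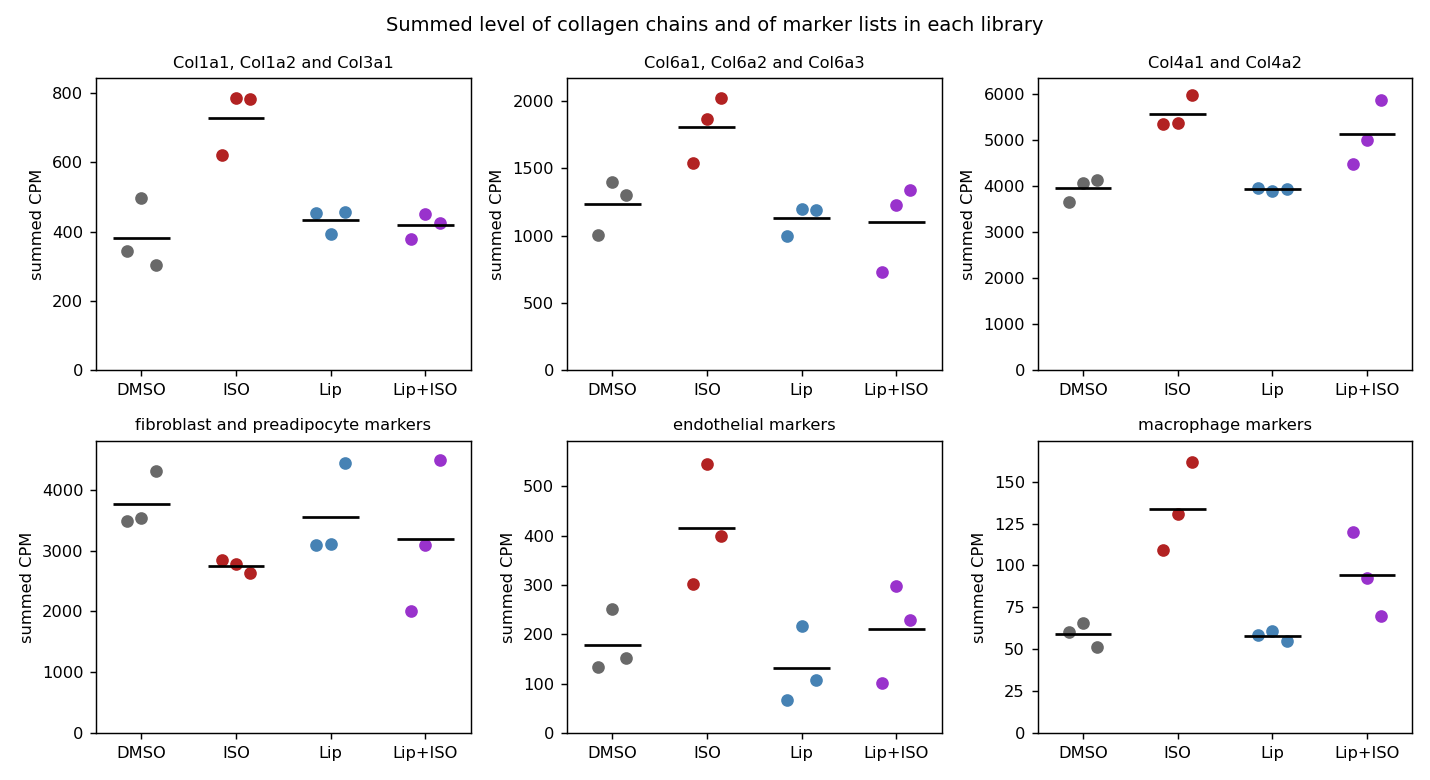
Summed CPM of collagen chains (upper row) and of marker lists (lower row) in each library, with the group mean as a line. The sums of collagen I and III chains, collagen VI chains, endothelial markers and macrophage markers are highest on average in ISO, and collagen IV is high in both groups with ISO. The fibroblast and preadipocyte sum is lowest on average in ISO. It is mostly Gsn, and every other marker of that list has a higher mean in ISO than in DMSO.

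Other genes of matrix biology were taken from 4 fixed lists of non-members. Beside their counts, 12.3% of all tested genes rose and 13.9% fell with ISO, and 11.5% rose and 15.8% fell under inhibition. Of 17 tested genes that modify or process collagen, 2 rose with ISO, the prolyl hydroxylase P4ha1 by 0.46 (SE 0.08, adjusted p = 0.00124) and Leprel2 by 0.86 (SE 0.26, adjusted p = 0.0251), and 0 fell. Under inhibition 0 rose and 2 fell, Serpinh1, the collagen chaperone, by 0.31 and the lysyl hydroxylase Plod2 by 0.47 on the log2 scale. The median log2 fold change of this list was 0.10 with ISO and 0.03 under inhibition.

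In the list of plasminogen activation and protease control, 4 of 9 tested genes rose with ISO and 1 fell. Plat, tissue plasminogen activator, rose by 1.49 (SE 0.24, adjusted p = 0.000594), Plaur, the urokinase receptor, by 1.05, Plau, urokinase, by 0.97 and Serpine2 by 0.89.

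Of 9 collagen receptors, Mrc2, which takes up cleaved collagen, rose with ISO by 0.94 (SE 0.18, adjusted p = 0.00244) and Ddr1 fell by 0.59 (SE 0.14, adjusted p = 0.00948). Of 22 other matrix proteins, 6 rose with ISO, namely Vcan, Fn1, Fbn1, Lama2, Lamb1 and Postn, and Thbs1 fell. Fibronectin (Fn1) averaged 712 CPM in DMSO, 1531 in ISO, 740 in Lip and 692 in Lip+ISO, rising with ISO by 1.10 (SE 0.22, adjusted p = 0.00269). Versican (Vcan), a substrate of Adamts1, Adamts4 and Adamts9, rose by 1.08 with ISO (SE 0.24, adjusted p = 0.00592) and by 0.98 under inhibition (SE 0.24, adjusted p = 0.00822). In Lip+ISO against ISO, 5 of these 22 fell (Fn1, Lama2, Lamb1, Lama4 and Thbs1) and 0 rose, where 4.59% and 4.36% of all genes did.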

How the data were processed

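RNA was sequenced from 12 cultures of eWAs (4 groups of 3), grouped by sample title. The authors aligned reads to mm9 with STAR 2.4.2a and counted them over RefSeq genes using HOMER and iRNA-seq, with 1 read accepted for each position and length. The deposited values are raw counts with no normalization. Whether strand was used is not given in the sources used here. The figure legend for these cells names SR-3420 as the stimulus, whereas the labels and the results text name ISO, which was followed.

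Counts were analyzed in R 4.3.3 with edgeR 4.0.16 (filterByExpr, TMM, a quasi-likelihood F-test, two-sided, 1 mean per group, all 12 libraries). P-values were adjusted by the Benjamini-Hochberg method over 13543 genes in each of 5 tests. Alternatives were DESeq2 1.42.0, RLE factors, library totals alone, no filter, a replicate block, only the groups compared, a 2-fold minimum, and leaving out each library and each replicate number. Scripts were tested on simulated data.

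Text names 27 chosen members, members past the 2-fold rule in any test, the 10 highest per length and those passing the interaction, 35 in all, while members outside the rule were named after their values were seen. Members and lists were chosen with earlier results of these data known. Promoter sequences are from RefSeq. Coordinates are those of the table in mm9, counted from 1. One gene of the fixed lists is not reported here.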

Additional observations from a re-analysis of the deposited data

Results flagged for a closer look

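The response to ISO differed with the inhibitors, by the interaction test of edgeR, for 3 members. Adamts9 had a difference of 0.86 on the log2 scale (adjusted p = 0.0274), rising in 3 of 3 ISO libraries over DMSO and in 3 of 3 Lip+ISO libraries over Lip. Loxl2 had -0.77 (adjusted p = 0.0448) and Col1a2 -1.03 (adjusted p = 0.0455). Each rests on few libraries, as stated with the interaction above.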

How the results depend on the processing

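Counts of members that passed, higher and lower, ranged in the leave-out fits from 13 to 23 and 3 to 5 in ISO against DMSO, from 3 to 10 and 3 to 6 in Lip+ISO against Lip, from 0 to 2 and 2 to 10 in Lip+ISO against ISO, and from 0 to 1 and 0 to 4 in the interaction, and were 0 in Lip against DMSO. With a 2-fold minimum they were 11 and 2, 5 and 3, 0 and 0, and 0 and 1 for the same 4 tests. The interaction was negative for 0 members with library totals alone (0.886% of all genes) and for 6 in DESeq2. Library totals alone gave 15 and 5 members with ISO (10.1% and 17.2% of all genes). The DESeq2 and leave-out shares of all genes are not given here, so changes among the members cannot be told from changes over all genes.

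With a replicate block, Lip+ISO against ISO had 2 members higher and 21 lower, and the interaction 14 lower. The shares of all genes called with the block are not given here. The labels do not say that a number marks a shared culture. Deviations of same-numbered libraries correlated at 0.0373 to 0.369 (median 0.274, 17 of 18 pairs over 0.1). Those of differently numbered libraries correlated at -0.329 to 0.0853 (median -0.121, 0 of 36 pairs over 0.1). Of the libraries, 12 of 12 correlated best with their own number, which is a hint of pairing from the data. Because the labels state no pairing and 1 pair stayed under 0.1, the block was kept as an alternative. The SEs and p-values of the main fit thus leave out any effect of the replicate number.

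No gene that passed reversed. Among values near 0 that did not pass in Lip+ISO against Lip, Col3a1 reversed to -0.087 with library totals alone and to -0.0032 with the block, and in leave-out fits Col1a2 ranged from -0.11 to 0.072, Col3a1 from -0.14 to 0.20, Mmp14 from -0.099 to 0.38, Mmp2 from -0.089 to 0.48 and Timp1 from -0.029 to 0.45. Members under about 1 CPM rest on few counts, and 26 could not be tested at this depth.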
